A study of Mus musculus with 6 samples.

Results

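Adventitial fibroblasts lie in the connective tissue sleeve around pulmonary vessels and airways, and 10 genes that mark them (*Pi16*, *Dpp4*, *Cd248*, *Dpt*, *Clec3b*, *Igfbp6*, *Pcolce2*, *Sfrp4*, *Serpinf1* and *Sema3c*) were followed in lungs of WT mice and of mice labelled ISM1-KO. They are 10 of the 54532 genes in the deposited count table, and all 10 passed the filter on low counts that left 18689 genes. The genes were looked up by symbol. The list was chosen from marker genes of these cells with earlier results on the WT against ISM1-KO counts in view, so the differences of the 10 genes between genotypes are given as a description, with no p-value for any of them, and so are the counts of calls among them.

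Whole-lung RNA was sequenced from 3 WT and 3 ISM1-KO mice at 2 months of age, all untreated, in a study that asked how loss of the secreted protein isthmin-1 alters the lung at baseline. WT C57BL/6J mice were purchased, whereas the mice lacking ISM1 were made in-house on the C57BL/6J background, so the source of the mice is confounded with genotype and their effects cannot be told apart. Blood was flushed from the lungs with PBS before RNA extraction, and each label names 1 library. The labels give no line or litter, no sex and no batch for any library.

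Total counts lay between 37606133 and 42345042 per library, and every pair of libraries differed by more than sampling noise. Levels are given as TMM-normalized CPM (counts scaled to a common library size), in which each library is divided by its total and a composition factor, and fold changes are libraries labelled ISM1-KO over WT. Transcripts of the targeted gene, *Ism1*, were present in all libraries, at 78.8 ± 2.88 CPM in WT and 69.0 ± 5.72 CPM in the libraries labelled ISM1-KO (mean ± SD, n = 3 each). Its log2 fold change was -0.19 (SE 0.0709) with an adjusted p of 0.217 in edgeR's quasi-likelihood test. The 3 libraries labelled ISM1-KO, at 65.4, 66.0 and 75.6 CPM, all lay below the WT libraries at 82.1, 77.4 and 76.9 CPM. Most of the *Ism1* signal was present in both groups, so the genotype is taken from the labels alone, and every direction below is between labels.

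*Pi16*-positive, *Dpp4*-positive fibroblasts are found around vessels and in the connective tissue of many organs and are often called universal fibroblasts. They express the general fibroblast receptor gene *Pdgfra* and secrete collagen-binding proteins, growth factor binding proteins and Wnt inhibitors. Similar cells lie in the septa of fat depots, where they serve as precursors of adipocytes. Several of the 10 genes are also used by other lung cells, *Dpp4* and *Sema3c* among them, and in RNA of a whole organ fewer cells of a type and less RNA per cell cannot be told apart.

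Per transcript length, the 10 genes spanned a wide range in these lungs. Mean deposited FPKM (fragments per kilobase of transcript, scaled to library size) over the 6 libraries was 205 for *Sema3c*, 158 for *Igfbp6*, 122 for *Dpp4*, 113 for *Pcolce2*, 98.4 for *Clec3b* and 81.3 for *Dpt*. A lower tier followed, with 25.8 for *Serpinf1*, 12.01 for *Pi16*, 5.94 for *Cd248* and 0.961 for *Sfrp4*. The gene that names the cells was thus among the 3 lowest of the list. All 10 were detected in every library, so the cell type's markers were present in both genotypes.

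Promoter sequence is shown for 3 genes whose counts were lower in every library labelled ISM1-KO than in every WT library (*Pi16*, *Serpinf1*, *Dpt*). The stretches come from RefSeq on GRCm38.p6, which held 7 of the 10 genes, and are printed 5′ to 3′ toward the gene up to the first transcribed base of the RefSeq or the deposited gene model, whichever comes first. Capitals mark matches to motifs that were searched on both strands.

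*Pi16*, chr17:29318632-29318876, plus strand: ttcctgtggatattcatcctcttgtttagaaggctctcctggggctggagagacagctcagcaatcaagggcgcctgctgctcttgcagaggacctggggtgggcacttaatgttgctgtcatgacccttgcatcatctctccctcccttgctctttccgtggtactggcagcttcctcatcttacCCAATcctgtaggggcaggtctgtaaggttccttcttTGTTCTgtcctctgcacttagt

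*Serpinf1*, chr11:75422702-75422873, minus strand: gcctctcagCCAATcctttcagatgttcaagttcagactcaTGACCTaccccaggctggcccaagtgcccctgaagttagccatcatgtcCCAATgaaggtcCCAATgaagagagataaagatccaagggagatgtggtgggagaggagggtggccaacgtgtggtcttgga

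*Dpt*, chr1:164796413-164796643, plus strand: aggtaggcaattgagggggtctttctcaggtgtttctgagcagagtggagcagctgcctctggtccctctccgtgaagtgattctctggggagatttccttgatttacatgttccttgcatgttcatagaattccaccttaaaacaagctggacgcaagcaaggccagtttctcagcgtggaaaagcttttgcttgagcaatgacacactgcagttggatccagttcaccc

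The *Pi16* stretch holds the letters CCAAT, the core of the binding site of NF-Y, 64 to 60 bases before the RefSeq start, and AGAACA, a half-site of steroid hormone receptors, on the opposite strand 27 to 22 bases before it. The *Serpinf1* stretch holds CCAAT at 3 places and AGGTCA, a half-site of other nuclear receptors, once on the opposite strand. None of the 7 motifs searched occurs in the 250 bases before *Dpt*. Over 250-base windows of the 7 genes matched, CCAAT was in 3 (33.8% of all 32851 promoters hold it), AGAACA in 3 (16.1%), TATAAA in 2 (12.4%), GGGCGG in 2 (32.7%), AGGTCA in 1 (14.0%), and TGANTCA (6.75%) and CTTTGA (13.8%) in none. The windows of *Pi16*, *Serpinf1* and *Dpt* held 2, 2 and 3 CpG dinucleotides, whereas that of *Sema3c*, the gene with the highest FPKM, held 39 beside a median of 6 over all promoters. The *Sema3c* window (17574566 to 17574815) lies wholly inside the deposited *Sema3c* gene, which starts at 17574281, so it is not upstream sequence in that gene model. GC content ran from 43.6% in *Dpp4* to 78.4% in *Sema3c*, with 52.4% in *Pi16*, which was also the median of all promoters. A match is a string of letters in a window, and binding was not measured.

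The first question was how the surface and membrane markers of these cells stood in the genotypes. *Pi16* encodes a membrane-anchored peptidase inhibitor of the CAP family. It lies on chromosome 17 (GRCm38, 29318877 to 29329413, ENSMUSG00000024011) and gave 33.0, 35.8 and 35.7 CPM in the WT libraries against 15.8, 19.5 and 18.2 CPM in those labelled ISM1-KO. The genotypes did not overlap, and the mean of 17.8 ± 1.88 CPM was 51.1% of the WT mean of 34.8 ± 1.59 CPM (n = 3 each). On the log2 scale the difference was -0.97 with an SE of 0.0860, the largest among the 10 genes. The counts behind it were 1245 to 1486 in WT and 671 to 740 in the libraries labelled ISM1-KO.

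*Cd248* encodes endosialin, a transmembrane glycoprotein of fibroblasts and pericytes, on chromosome 19 (5068078 to 5070637, ENSMUSG00000056481). Its CPM were 19.1, 17.6 and 16.1 in WT and 11.6, 14.1 and 12.8 in the libraries labelled ISM1-KO. Every WT library was again above the others, with means of 17.6 ± 1.49 and 12.8 ± 1.22 CPM and a log2 fold change of -0.46 (SE 0.0990). *Dpp4*, the dipeptidyl peptidase CD26, which trims chemokines and incretins, did not share this direction. It lies on chromosome 2 (62330073 to 62412231, ENSMUSG00000035000) and read 161, 153 and 160 CPM in WT and 176, 160 and 187 CPM in the libraries labelled ISM1-KO. The second library labelled ISM1-KO lay within the WT range, and the log2 fold change was 0.14 (SE 0.0667).

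**Figure D1:**
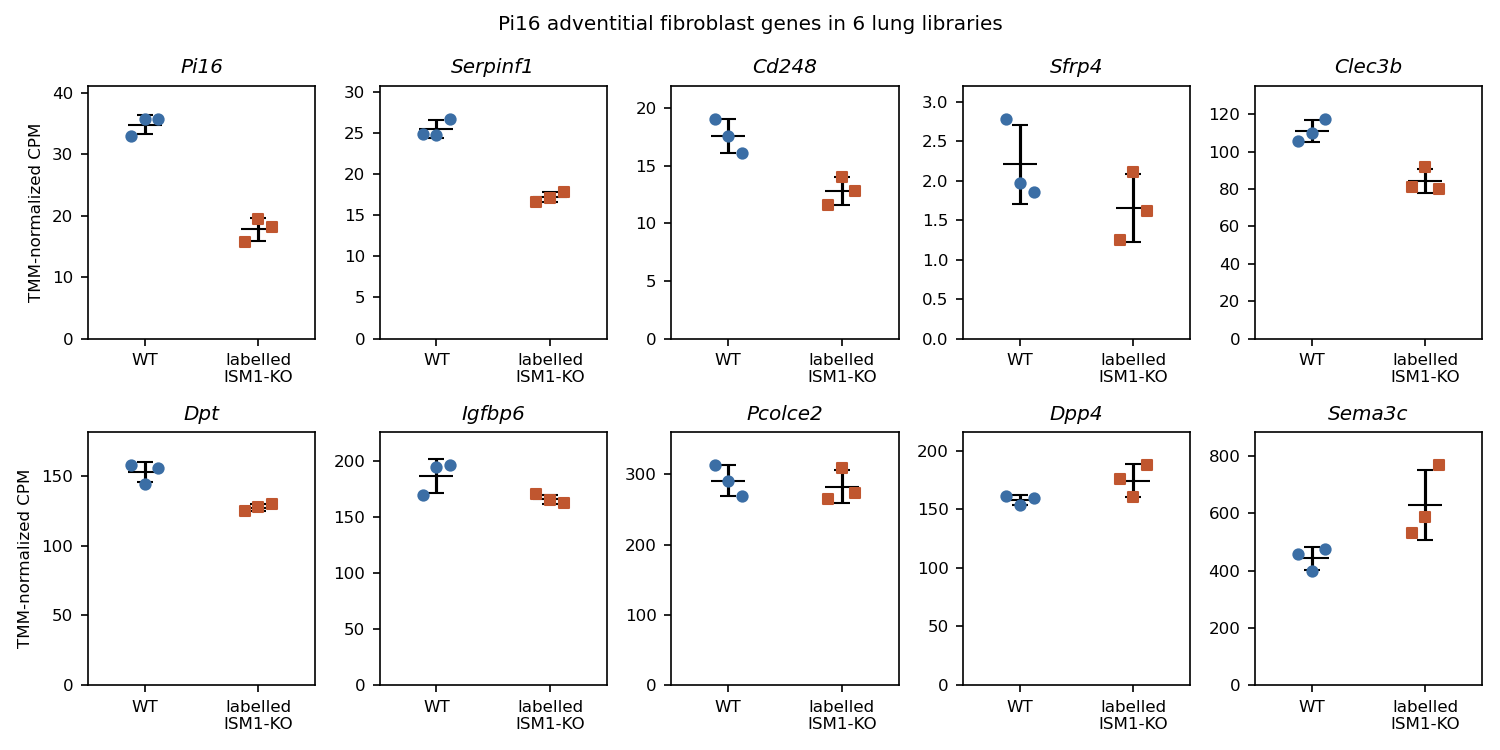
TMM-normalized CPM of each of the 10 genes in the 3 WT and 3 libraries labelled ISM1-KO. Points are libraries and bars are the mean ± SD of 3 libraries. *Pi16*, *Cd248*, *Dpt*, *Clec3b* and *Serpinf1* lie lower in every library labelled ISM1-KO, *Sema3c* lies higher in each, and the other 4 genes overlap.

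Among the genes for matrix proteins, *Dpt* and *Clec3b* lay lower in the libraries labelled ISM1-KO and *Pcolce2* did not separate. *Dpt* encodes dermatopontin, which binds decorin and helps collagen fibrils assemble, on chromosome 1 (164796644 to 164824266, ENSMUSG00000026574). It read 158, 145 and 156 CPM in WT against 125, 128 and 130 CPM, with means of 153 ± 7.19 and 127 ± 2.28 CPM. The log2 fold change was -0.26 (SE 0.0569), the smallest among the 5 genes whose lower ranges did not overlap. *Clec3b*, which encodes the plasminogen-binding lectin tetranectin, lies on chromosome 9 (123150946 to 123157432, ENSMUSG00000025784). Its CPM were 106, 110 and 117 in WT and 81.1, 91.7 and 79.8 in the libraries labelled ISM1-KO, or 111 ± 6.02 against 84.2 ± 6.53. That is 75.8% of the WT mean, with a log2 fold change of -0.40 (SE 0.0713).

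*Pcolce2* encodes an enhancer of the proteinase that trims procollagen, also on chromosome 9 (95637601 to 95698096, ENSMUSG00000015354). Its levels of 313, 291 and 268 CPM in WT and 265, 309 and 273 CPM in the libraries labelled ISM1-KO lay across each other. The means of 291 ± 22.1 and 282 ± 23.4 CPM differed by less than either SD, with a log2 fold change of -0.04 (SE 0.0777).

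The secreted regulators covered both directions. *Serpinf1* encodes pigment epithelium-derived factor, a serpin without protease inhibition that restrains vessel growth, on chromosome 11 (75409769 to 75422701, ENSMUSG00000000753). Its CPM of 24.9, 24.8 and 26.7 in WT stood well above 16.6, 17.2 and 17.9 in the libraries labelled ISM1-KO. The means of 25.5 ± 1.07 and 17.2 ± 0.644 CPM gave a level of 67.5% of WT and a log2 fold change of -0.57 (SE 0.0701), second to *Pi16* in size. *Igfbp6* encodes a binding protein that prefers IGF2, on chromosome 15 (102144362 to 102149511, ENSMUSG00000023046). It read 169, 194 and 196 CPM in WT and 170, 165 and 162 CPM in the libraries labelled ISM1-KO. The first library labelled ISM1-KO was as high as the first WT library, so the ranges overlapped, and the log2 fold change was -0.17 (SE 0.0676).

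*Sfrp4* encodes a secreted Wnt inhibitor, on chromosome 13 (19623104 to 19632994, ENSMUSG00000021319). It had only 53 to 105 counts per library and read 2.78, 1.97 and 1.86 CPM in WT and 1.25, 2.11 and 1.61 CPM in the libraries labelled ISM1-KO. The ranges overlapped, and the log2 fold change of -0.42 carried an SE of 0.246, the largest error among the 10 genes. Leaving out 1 library moved it between -0.22 without WT replicate 1 and -0.62 without ISM1-KO replicate 2. *Sema3c* encodes a secreted semaphorin that signals through neuropilins and plexins, on chromosome 5 (17574281 to 17730268, ENSMUSG00000028780). It was the only one of the 10 genes to lie higher in every library labelled ISM1-KO, at 532, 587 and 768 CPM against 457, 398 and 476 CPM in WT. The library at 768 CPM stood well above the other two, so the mean of 629 ± 123 CPM had a wide SD beside 444 ± 40.3 CPM in WT. The log2 fold change of 0.50 (SE 0.124) ran from 0.34 to 0.61 when each of the 6 libraries was left out in turn.

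A gene was called when its Benjamini-Hochberg adjusted p over all 18689 genes was under 0.1 in edgeR's quasi-likelihood test. By this rule 5 of the 10 genes were called lower (*Pi16*, *Serpinf1*, *Cd248*, *Clec3b* and *Dpt*), where 3.34% of all genes were. *Sema3c* was called higher, where 1.38% of all genes were. The same 5 genes were lower in every library labelled ISM1-KO than in every WT library (12.3% of all genes), and *Sema3c* was higher in each (9.33%). The median log2 fold change of the list was -0.33, beside 0.00 over all genes tested. Since this comparison chose the list, nothing is read from these counts. No mean of the 10 genes differed 2-fold.

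The count of genes called lower dropped from 5 to 2 without WT replicate 2 and also to 2 without ISM1-KO replicate 1, with *Pi16* and *Serpinf1* called in all 6 fits that left out a library. *Sema3c* was called in 2 of these 6 fits, those without ISM1-KO replicate 1 or ISM1-KO replicate 3.

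Measured against a general fibroblast gene, the pattern was alike. *Pdgfra*, the PDGF receptor of most fibroblasts, read 356 ± 24.2 CPM in WT and 377 ± 39.8 CPM in the libraries labelled ISM1-KO. Per 100 CPM of *Pdgfra*, *Pi16* stood at 8.67, 10.77 and 10.05 CPM in WT and at 4.38, 5.58 and 4.29 CPM in the libraries labelled ISM1-KO. *Serpinf1* went from 7.18 ± 0.547 to 4.58 ± 0.345 CPM on this scale, and *Sema3c* from 125 ± 7.95 to 166 ± 17.0 CPM. The 6 genes whose CPM did not overlap between genotypes were also the ones whose ratios to *Pdgfra* did not overlap. *Pdgfra* differed little between genotypes, so these ratios follow the CPM and are not separate evidence. Per 100 CPM of the fibrillar collagen gene *Col3a1*, the same 6 genes did not overlap. On that scale *Igfbp6* did not overlap either, at 27.6 ± 1.98 CPM in WT and 24.5 ± 1.06 CPM in the libraries labelled ISM1-KO. The sum of the 10 genes, to which *Sema3c* adds most, lay between 1372 and 1453 CPM in WT and between 1394 and 1651 CPM in the libraries labelled ISM1-KO.

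Within each genotype the 10 genes did not vary as one block. After the genotype mean was removed from log2 CPM, the 45 pairs had a median Pearson's r of 0.18 over the 6 libraries, from -0.75 to 0.97, and 27 pairs were positive. *Cd248*, *Pcolce2* and *Sfrp4* moved most closely, with r of 0.97 for *Cd248* and *Pcolce2*, 0.96 for *Cd248* and *Sfrp4*, and 0.93 for *Pcolce2* and *Sfrp4*. *Serpinf1* and *Sema3c*, which differed between genotypes in opposite directions, had r of 0.82 within them. *Igfbp6* and *Sfrp4* stood lowest at -0.75, followed by *Dpp4* and *Clec3b* at -0.74.

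**Figure D2:**
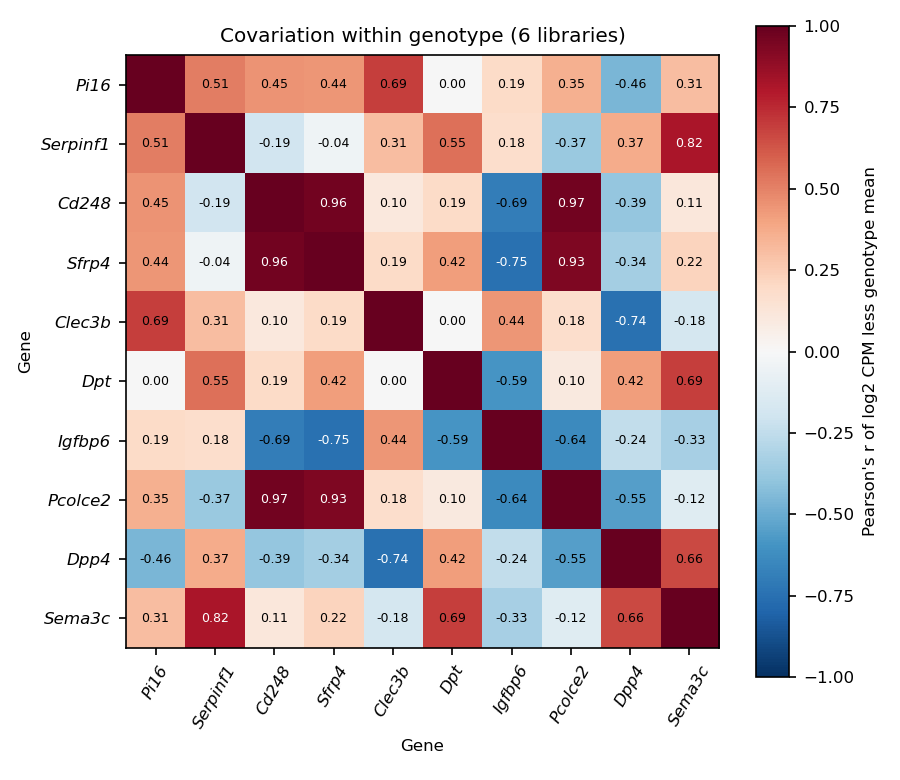
Pearson's r between each pair of the 10 genes, over 6 libraries, of log2 CPM after the mean of each genotype was removed. Each cell is 1 pair and its color is r. The cells for *Cd248*, *Pcolce2* and *Sfrp4* reach 0.93 to 0.97, whereas most others lie between the extremes of -0.75 and 0.97 without a common sign.

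For comparison, the median r was 0.99 for 8 cardiomyocyte genes, 0.87 for 10 adipocyte genes, 0.86 for 9 T cell genes and 0.84 for 9 mesothelial genes. It was 0.85 for 7 smooth muscle genes, 0.30 for 6 *Col15a1* fibroblast genes and 0.29 for 9 pericyte genes. Lists as low as the 10 genes were the 7 peribronchial genes (0.18), the 10 endothelial genes (0.17), the 23 other adventitial and universal fibroblast genes (0.14) and the 11 alveolar fibroblast genes (0.00). All values come from the same 6 libraries, which share tissue composition and depth, and are descriptions. The median of the 10 genes ran from -0.15 without ISM1-KO replicate 1 to 0.38 without WT replicate 3.

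The genes whose level followed the list most closely were sought among the 12485 genes whose mean reached 5 CPM. The measure was Pearson's r over the 6 libraries with the mean z-score of the 10 genes. The genotype mean was not removed, and the score itself lay at 0.31 to 0.58 in WT and -0.78 to -0.23 in the libraries labelled ISM1-KO. The list was chosen with that difference in view, and the top of 12485 genes over 6 libraries is high by selection. Nothing beyond description is read from these r values. *Thoc3*, *Lgi4*, *Slc26a2*, *Lum*, *St8sia2*, *Cntfr*, *Pak6*, *Ccdc189*, *Bche* and *Tcf20* had the highest r, from 0.989 to 0.997. *Lum*, which encodes the collagen-binding proteoglycan lumican, was the only one of them in a fibroblast list. Within the list itself, where each gene is part of the score, r was highest for *Cd248* (0.96), *Pi16* (0.95) and *Dpt* (0.95). It was below zero for *Sema3c* (-0.60) and *Dpp4* (-0.68).

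The next question was whether other genes used as markers of these cells differed. Other lung cells can express such genes too, and which cells gave the transcripts was not measured. Of 23 other adventitial and universal fibroblast genes, 2 were called lower and none higher, beside 3.34% and 1.38% of all genes. Their median log2 fold change was -0.03. The number called lower ran from 0 without ISM1-KO replicate 1 to 6 without ISM1-KO replicate 3. It was 1 without WT replicate 1, WT replicate 3 or ISM1-KO replicate 2. *Dcn*, which encodes the collagen-binding proteoglycan decorin, fell from 172, 148 and 161 CPM in WT to 102, 97.6 and 130 CPM (log2 fold change -0.54, SE 0.105, edgeR adjusted p 0.0328). *Lum* fell from 12.2, 9.05 and 10.4 CPM to 4.91, 7.06 and 6.79 CPM (-0.76, SE 0.159, edgeR adjusted p 0.0431). Neither gene overlapped between genotypes, and both encode partners of fibrillar collagen, as *Dpt* does. Of the 23 genes, 6 lay lower in every library labelled ISM1-KO than in every WT library (12.3% of all genes). They were *Dcn*, *Lum*, *Col14a1*, *Ccl11*, *Gfpt2* and *Gsn*. One gene, *Cd34*, lay higher in each (9.33% of all genes). An unadjusted p under 0.05 in edgeR's test was found for 7 of the 23. The share of all genes at that level was not counted, so no excess is read from it. The call of *Dcn* was lost without ISM1-KO replicate 1 or 2, and that of *Lum* without WT replicate 1 or 3 or ISM1-KO replicate 1. The members of this list with the highest FPKM, *Gsn* (log2 fold change -0.19, SE 0.0617) and *C3* (-0.04, SE 0.0839), did not pass the test, and *Cd34*, *Ly6a*, *Mfap5* and *Col14a1* did not either.

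The *Col15a1* fibroblasts, another connective tissue population, gave 3 of 6 genes called lower and none called higher by edgeR, beside 3.34% and 1.38% of all genes. *Penk*, a precursor of opioid peptides, fell by 1.01 on the log2 scale (SE 0.194, edgeR adjusted p 0.0314), the matrix gene *Hmcn2* by 0.85 (SE 0.190, adjusted p 0.0504) and the basement membrane collagen gene *Col15a1* by 0.37 (SE 0.0909, adjusted p 0.0671). *Penk* kept its call in 3 of the 6 fits without 1 library and *Hmcn2* and *Col15a1* in 2 each, and none of the list was called lower without WT replicate 2 or without ISM1-KO replicate 1. The basement membrane genes *Col4a1* (log2 fold change 0.25, SE 0.0704, edgeR adjusted p 0.106) and *Col4a2* (0.24, SE 0.0733, edgeR adjusted p 0.129) lay higher in every library labelled ISM1-KO, and DESeq2 called 2 genes of the list higher. Of 11 alveolar fibroblast genes, 1 was called lower, where 3.34% of all genes were. It was the Wnt ligand gene *Wnt2* (-0.50, SE 0.0829, edgeR adjusted p 0.0204), which kept its call in all 6 fits without 1 library. The median of the alveolar list was 0.06. Single genes passed in the peribronchial list (*Lgr6*, -0.69, of 7), the smooth muscle list (*Cnn1*, -0.75, of 7), the pericyte list (*Postn*, 0.38, of 9) and the mesothelial list (*Upk1b*, 0.35, of 9). Their calls held in 4, 2, 3 and 1 of the 6 fits without 1 library. All 7 smooth muscle genes had lower means, with a median log2 fold change of -0.32, and DESeq2 called 3 of them lower, while edgeR called 4 without ISM1-KO replicate 3. The mesothelial list had a median of 0.17, and DESeq2 called 2 of its genes higher.

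**Figure D3:**
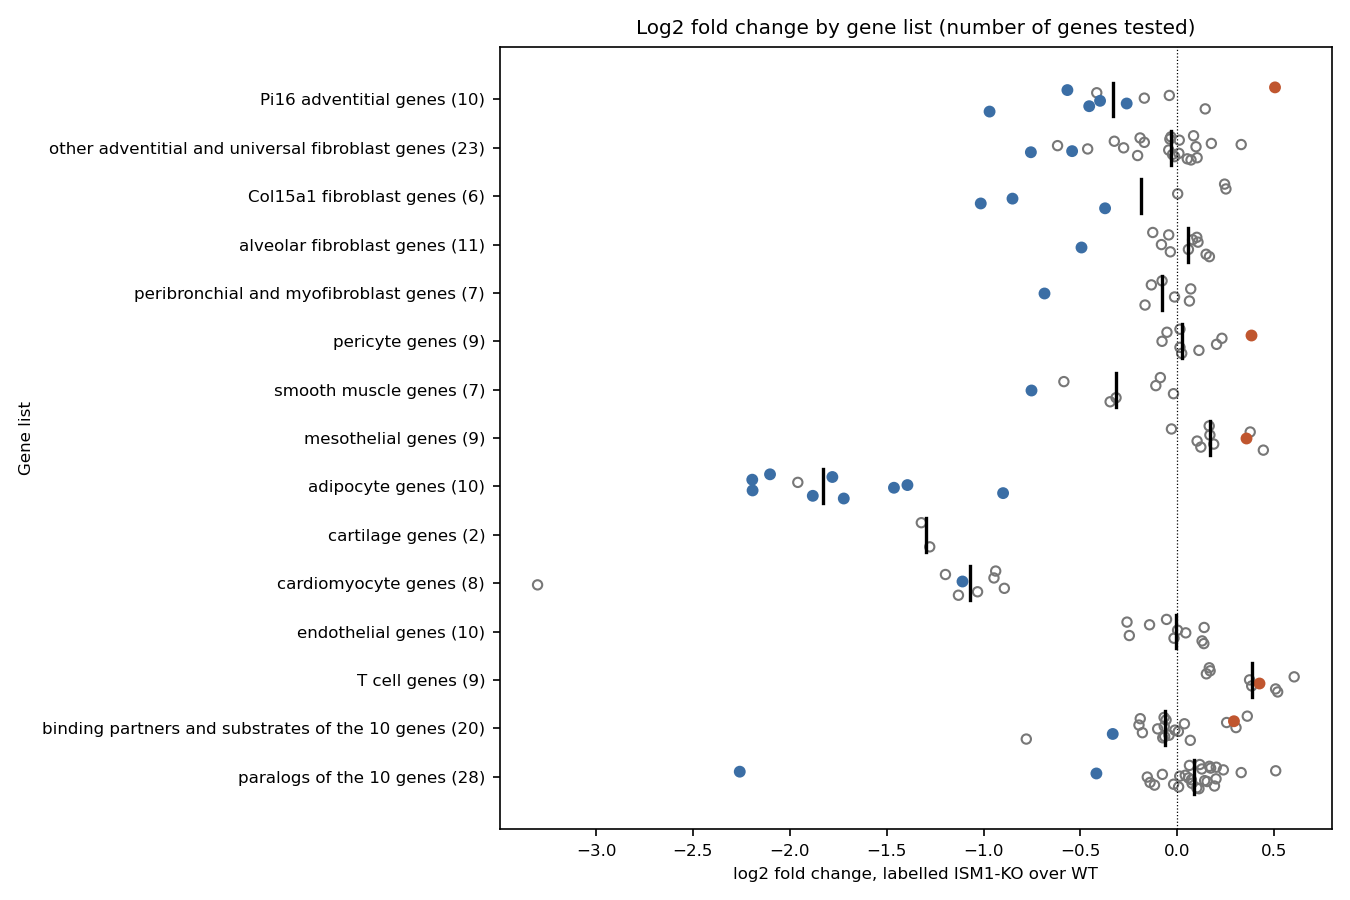
Log2 fold change, libraries labelled ISM1-KO over WT, of each tested gene in the 10-gene list and in the lists set beside it. Each point is a gene, filled where its adjusted p was under 0.1 (blue for lower, orange for higher), and the bar is the list's median. The adipocyte list lies lowest with a median of -1.83, the 10 genes have a median of -0.33, and the 23 other adventitial genes have a median of -0.03.

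The proteins that the 10 genes act on were followed through 21 genes for binding partners and substrates, of which 20 passed the filter. Of these, 1 was called lower and 1 higher, beside 3.34% and 1.38% of all genes, and their median was -0.06. *Col1a1*, whose procollagen is trimmed with the help of *Pcolce2*, fell by 0.33 on the log2 scale (SE 0.0752, edgeR adjusted p 0.0517), and it was called in 3 of the 6 fits without 1 library. *Cxcl12*, a chemokine that *Dpp4* cleaves, rose by 0.29 (SE 0.0770, edgeR adjusted p 0.0872), a call that held in 1 of the 6. *Col3a1*, another fibrillar collagen gene of this list, stood at 675 and 677 CPM. The *Sema3c* receptors *Nrp1*, *Nrp2*, *Plxna2* and *Plxnd1* did not pass the test, with log2 fold changes of -0.01, -0.10, 0.30 and -0.07.

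Paralogs of the 10 genes were also compared, 28 of 30 of them past the filter. Of these, 2 were called lower and none higher, beside 3.34% and 1.38% of all genes, and their median was 0.09. The Wnt inhibitor *Sfrp1*, a relative of *Sfrp4*, fell from 27.4 to 20.5 CPM (-0.42, SE 0.0797, edgeR adjusted p 0.0312), and it kept its call in 3 of the 6 fits without 1 library. *Sfrp5* was called at a low level, 1.35 against 0.281 CPM (-2.26, SE 0.621, edgeR adjusted p 0.0998), in 1 of the 6. No class 3 semaphorin other than *Sema3c* was called, and *Sema3a*, *Sema3e* and *Sema3g* had log2 fold changes of 0.13, 0.17 and 0.12.

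Marker genes of fat, heart and cartilage, tissues that can be attached to a lung, were also compared. Of 10 adipocyte genes, 9 were called lower, where 3.34% of all genes were. All 10 lay lower in every library labelled ISM1-KO than in every WT library (12.3% of all genes). The median log2 fold change was -1.83. This list, like the others beside the 10 genes, was chosen with earlier results of these data known. The paper had already listed *Adipoq*, *Plin1*, *Pck1* and *Fabp4* among its downregulated genes. The counts of adipocyte genes are therefore a description. They include *Plin1*, the lipid droplet coat gene (-1.88, SE 0.287, edgeR adjusted p 0.0163), and *Cfd*, which encodes adipsin (-2.10, SE 0.358, edgeR adjusted p 0.0222). Their summed level was 328, 254 and 308 CPM in WT and 52.9, 64.3 and 147 CPM in the libraries labelled ISM1-KO, with no overlap and no gene of the list at 0. The number called ranged from 3 to 9 when 1 library was left out, and *Plin1*, *Cfd* and *Cidec* kept their call in all 6 fits. *Adipoq*, also on this list, encodes adiponectin, which the paper located by staining in lung cells that carry surfactant protein C.

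**Figure D4:**
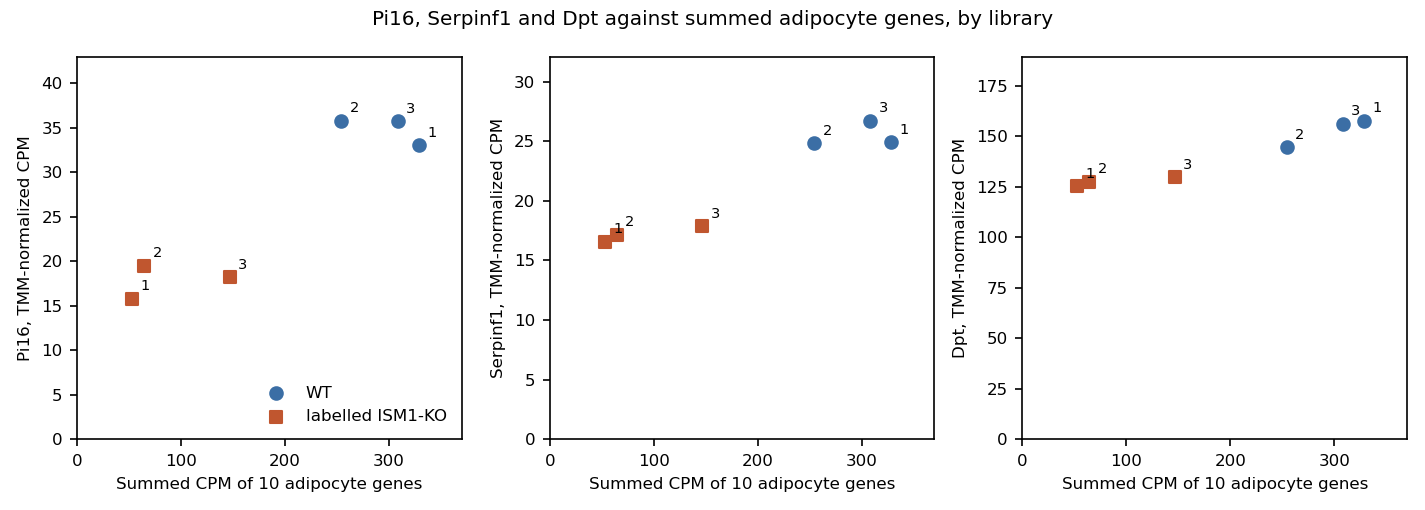
Level of *Pi16*, *Serpinf1* and *Dpt* (TMM-normalized CPM, vertical axis) against the summed CPM of 10 adipocyte genes (horizontal axis), 1 point per library, numbered by replicate. The libraries labelled ISM1-KO lie at 52.9 to 147 CPM on the horizontal axis and the WT libraries at 254 to 328 CPM, so the 2 groups are apart on this axis as well as in the 3 genes.

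The 8 cardiomyocyte genes summed to 1570, 504 and 607 CPM in WT and to 276, 386 and 539 CPM in the libraries labelled ISM1-KO, ranges that overlapped. All 8 had lower means, with a median log2 fold change of -1.07 and an unadjusted p under 0.05 each in edgeR. Of these, 1 (*Myl7*) was called lower by edgeR, where 3.34% of all genes were, and none by DESeq2. Without the filter on low counts all 8 were called, and without ISM1-KO replicate 3 there were 3. Among 10 endothelial genes none was called by edgeR or by DESeq2, with 4 at an unadjusted p under 0.05. Of 9 T cell genes 1 was called higher (*Cd2*), where 1.38% of all genes were. All 9 T cell genes had higher means, with a median log2 fold change of 0.38, and DESeq2 called 3 of them higher. Of 7 cartilage genes 2 passed the filter, of which none was called by either tool although both had an unadjusted p under 0.05 in edgeR. The share of all genes at that unadjusted level was not counted, so no excess is read from the unadjusted counts of any list. *Myl7* and *Cd2* each kept their call in 1 of the 6 fits without 1 library. Precursor cells of fat express *Pi16*, *Dpp4* and *Cd248* too, and the part that attached fat or heart tissue has in the levels of the 10 genes was not tested.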

How the data were processed

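The deposited read counts of 54532 genes in 3 WT and 3 ISM1-KO lung libraries were used. The authors trimmed adaptors and discarded reads of low quality from strand-specific poly-A libraries, mapped read pairs to GRCm38/mm10 with STAR, and deposited raw counts per gene together with FPKM values, in which both library total and gene length are divided out. The counting program, annotation release and strand setting are not given in the sources used here. Genes overlapping the 10 genes on the deposited coordinates had few counts. FPKM served only to order levels between genes.

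The analysis used edgeR 4.0.16 under R 4.3.3. A gene was kept where any library reached 0.5 CPM, and TMM factors scaled the libraries. WT and ISM1-KO were compared with the quasi-likelihood test of edgeR, p-values were adjusted by Benjamini-Hochberg over 18689 genes, and the threshold was 0.1. The test was tried on simulated counts with planted changes, and no rate of recovery or of false calls is given here. Log2 CPM for correlations used a prior count of 2. P-values measure the spread between the libraries of a genotype, and the labels do not say whether these were separate litters.

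The 10 genes and the lists beside them were chosen with earlier results of these data known. Genes named were the 10 genes, *Ism1*, up to 4 called genes with the largest change and the 2 with the highest FPKM in each list, and the 10 genes most like the mean of the list. Other list genes were named after their values were seen. Alternatives were DESeq2 1.42.0, RLE factors, library totals, other filters and thresholds, a replicate block, FPKM ratios (pseudocount 0.1) and the omission of each library. Deviations from the genotype mean had r from -0.04 to 0.03 between same-numbered WT and ISM1-KO libraries, and from -0.06 to 0.05 between the others. With 3 libraries per genotype these values cannot decide whether the numbers pair animals, and the labels do not say. The study's enrichment analyses were not repeated.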

Additional observations from a re-analysis of the deposited data

How the results depend on the processing

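The log2 fold change of each of the 10 genes moved by less than the spread between replicates under every alternative, 130 values in all. *Pcolce2*, which was not called, changed sign in 2 alternatives and lay between -0.11 and 0.02. The count of the 10 genes called lower was 0 when a 2-fold change was also asked for and ran from 2 to 5 when 1 library was left out, and the count called higher was 0 at an adjusted p under 0.05, 0 with the 2-fold change and ran from 0 to 1 with 1 library left out. DESeq2 called 5 lower and 1 higher, none with a 2-fold change.

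Of the 158 list genes tested, 21 were called lower and 4 higher, beside 3.34% and 1.38% of all genes. With no filter beyond 1 count they were 37 and 12, with the 2-fold change 11 and 0, and with 1 library left out 6 to 30 and 0 to 7. The number called higher was 10 in DESeq2 and 1 at an adjusted p under 0.05. With the replicate number as a block, 7 list genes were called higher in place of 4. The block changed no other count by over 1.5 times among the 10 genes or the lists together. Within single lists it gave 2 *Col15a1* fibroblast genes higher in place of none, 2 binding partners higher in place of 1, 1 endothelial gene lower in place of none, 2 smooth muscle genes lower in place of 1 and no cardiomyocyte gene lower in place of 1. It raised the count over all genes from 258 to 399 higher and from 624 to 706 lower. Over all genes, 466 were called higher and 819 lower in DESeq2, 566 and 1066 without the filter, 113 and 342 at an adjusted p under 0.05, and 53 and 53 with the 2-fold change. Leaving out WT replicate 2 gave 35 and 115, and leaving out ISM1-KO replicate 3 gave 570 and 900. Among the 10 genes, depth limits *Sfrp4* most, with at most 105 counts in a library.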
